A study of Mus musculus with 5 samples.

Results

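The 10 genes described here protect cells from reactive oxygen and reactive metals: Sod2, Mt1, Mt2, Hmox1, Nqo1, Gclc, Gclm, Txnrd1, Srxn1 and Slc7a11. They were taken as every probe set whose single symbol in the platform annotation is one of these names, which gave 22 of the 45101 probe sets and 10 of the 18194 genes with a single-symbol probe set. Expression was measured on 5 one-colour arrays hybridised with RNA of cultured mouse cells on a C57BL/6J background, labelled as aortic endothelial cells, the lining of the vessel wall. By title, 2 arrays were TNF-LTBR and 3 were control, all at 24 h. All cultures shared a medium with serum, heparin and an endothelial growth supplement and were fed before stimulation. The treatment text, which is identical for all 5 samples, names PBS alone, so group membership comes from the titles only. The agents behind that name (TNF, an inflammatory cytokine, and LTBR, the lymphotoxin beta receptor) and the doses used are not stated in these sources. No label says that replicate arrays are independent cultures or animals, and p-values therefore cover only the spread among these 5 samples, which could be technical.

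Nrf2, encoded by Nfe2l2, is a transcription factor that the adaptor Keap1 marks for destruction in resting cells. Oxidants and electrophiles modify Keap1, Nrf2 then accumulates, and it binds antioxidant response elements in genes for glutathione synthesis, thioredoxin recycling, heme breakdown and quinone reduction, where the repressor Bach1 competes with it. Metallothioneins are small cysteine-rich proteins that bind zinc and copper, and their genes answer to the metal sensor Mtf1 and to inflammatory and glucocorticoid signals. Sod2, the manganese superoxide dismutase of mitochondria, is a textbook target of NF-kB, the pathway that TNF activates.

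The arrays did not sort by their titles. Over the 10916 tested genes, TNF-LTBR array 1 lay closest to control array 2, with a root mean square difference of 0.348 on the log2(intensity + 16) scale, and TNF-LTBR array 2 lay closest to control array 3, also at 0.348. The distance between the 2 TNF-LTBR arrays was 0.723, and distances among the 3 controls were 0.534 to 0.750. Markers of the labelled cell type were dim: 5 of 11 endothelial markers were among the brightest 60% of genes, and Vwf was under an intensity of 16 on every array. Summed endothelial markers were 3264 and 2408 on TNF-LTBR arrays 1 and 2, against 3371, 3834 and 2580 on control arrays 1 to 3. Eng alone gave 1693.5 of the sum on TNF-LTBR array 2 and 1811.2 on control array 3. Of the 11 markers, 9 had their 2 lowest values on those arrays, as did 23.1% of all tested genes. All 8 fibroblast and pericyte markers were among the brightest 60%. Summed smooth muscle markers, 6 of 8 among the brightest 60%, were 7099 and 4369 in TNF-LTBR, against 14845, 12208 and 4371 in control, above the endothelial sum on every array. Sums over different probe sets do not compare amounts of cell types. Acta2 alone gave 4156.4 and 2066.4 in TNF-LTBR, against 7581.6, 8169.4 and 2082 in control. Against the direction of the sum, 2 of the 8, Des and Synpo2, lay higher in TNF-LTBR without overlap, as did 8.73% of single-symbol probe sets. The others overlapped. The sums of the fibroblast and the macrophage list stand beside the results whose high arrays they share. In cultures measured in bulk, fewer cells of a type and less RNA per cell cannot be told apart.

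**Figure D1:**
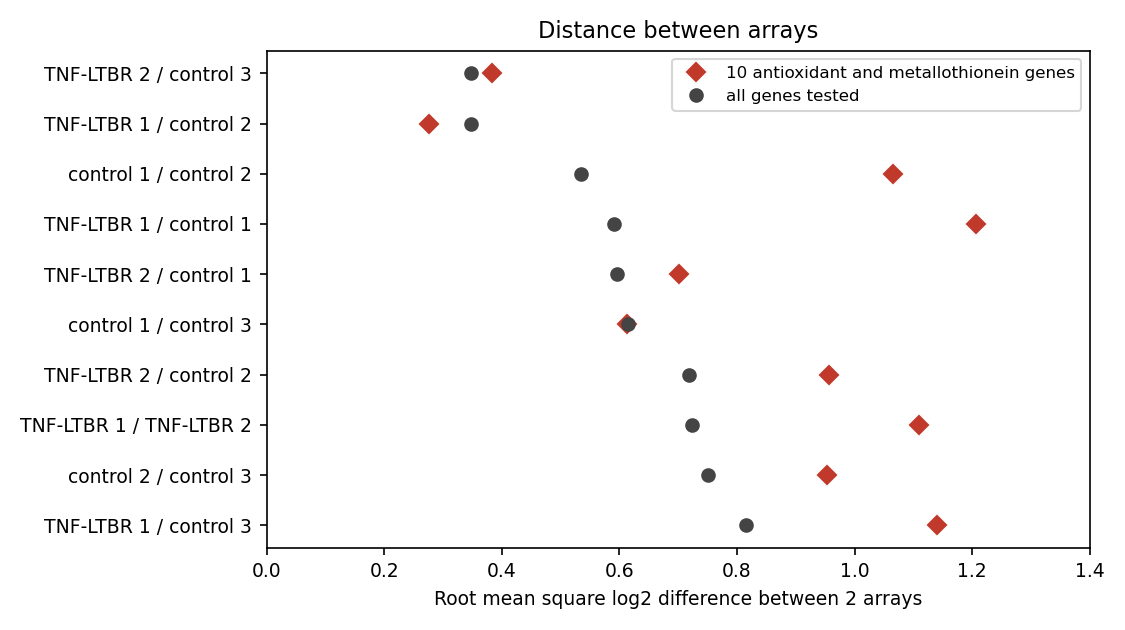
Root mean square log2 difference between each pair of arrays, over all tested genes (grey circles) and over the 10 antioxidant and metallothionein genes (red diamonds). The pairs TNF-LTBR 1 with control 2 and TNF-LTBR 2 with control 3 are the closest on both measures, at 0.277 and 0.383 over the 10 genes.

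None of the 10 genes separated the groups. For every one, the TNF-LTBR and control values overlapped on the brightest probe set, which stands for the gene. None passed limma's test (Benjamini-Hochberg adjusted p 0.999 for each, over all 10916 tested genes), and none had an unadjusted p under 0.05. Over all tested genes 0% passed the adjusted test and 1.76% had an unadjusted p under 0.05, 0.962% higher and 0.797% lower in TNF-LTBR. The groups did not overlap for 6.94% of tested genes with TNF-LTBR higher and for 6.34% with TNF-LTBR lower. All 10 fitted differences were above 0, against 49.3% of tested genes, with a median of 0.12, against a median of -0.0035 over all tested genes. That count rested on single arrays: it was 7 of 10 when TNF-LTBR replicate 1 or control replicate 3 was left out, and 8 of 10 when any of the other 3 arrays was. The median was 0.33 without TNF-LTBR replicate 2, 0.065 without control replicate 1 and 0.31 without control replicate 2. The range of the control arrays was wider than the group difference for all 10 genes, and the gap between the 2 TNF-LTBR arrays was wider for 8 of them. At the median of all tested genes that gap was 0.29 and the absolute group difference 0.13, so a wider gap is not particular to these genes. The shares of all tested genes that meet these 2 conditions were not counted.

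**Figure D2:**
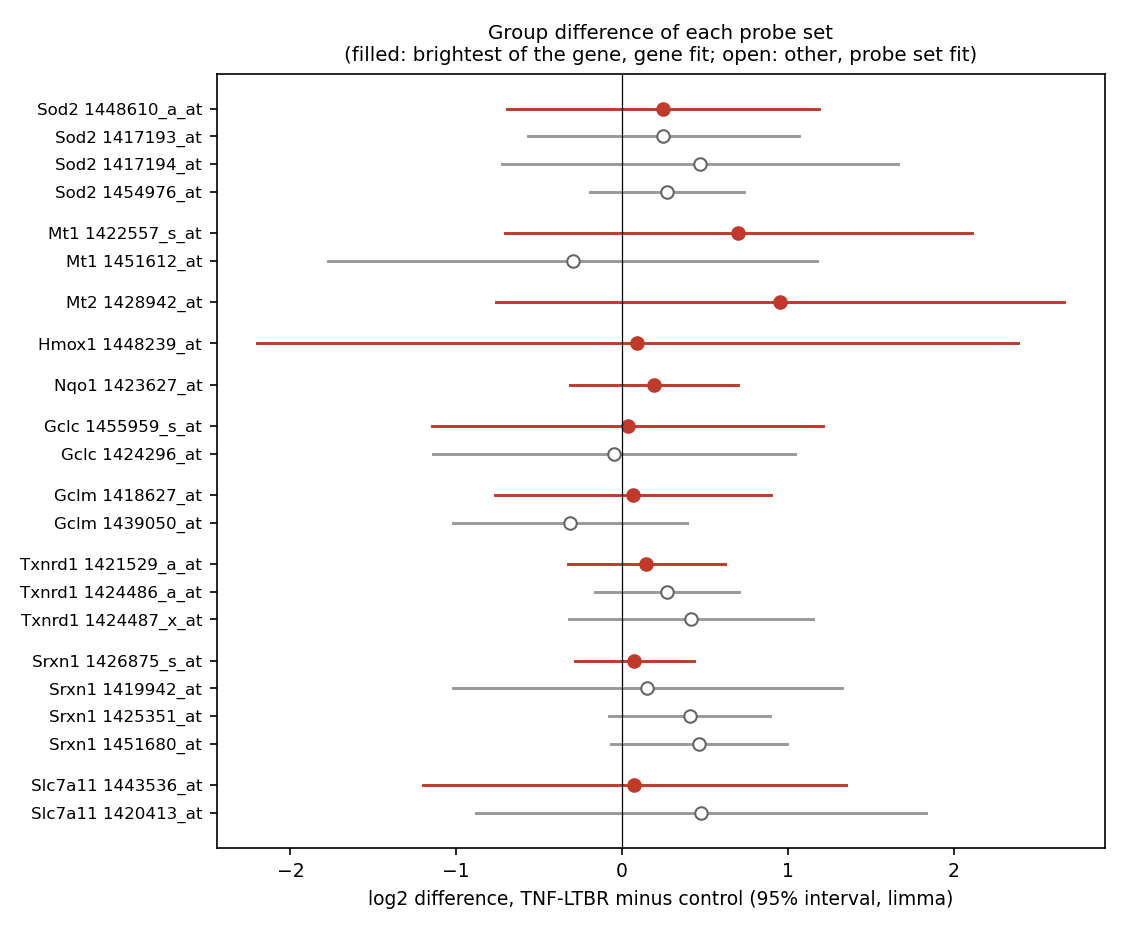
Log2 difference of TNF-LTBR minus control with its 95% interval from limma for all 22 probe sets (filled red, brightest probe set of a gene; open grey, other probe sets). Every interval includes 0, and 19 of the 22 points lie above it.

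Across all 22 probe sets, which overlap in their targets and are not separate evidence, 19 differences were above 0 and 3 below. On 4 probe sets both TNF-LTBR arrays exceeded every control, and on none did both lie below. In the fit of all 34958 single-symbol probe sets, 8.73% did so above and 6.6% below, and 0% passed the adjusted test. The 4 were 2 probe sets of Srxn1 and 1 each of Sod2 and Txnrd1, none of them the brightest of its gene. The smallest unadjusted p among the 22 was 0.0770 (limma, adjusted p 1.000).

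The metallothioneins had the largest group differences of the 10 genes. Mt2 had intensities of 15194 and 6224.6 on TNF-LTBR arrays 1 and 2, against 3121.4, 11135.2 and 3623 on control arrays 1 to 3. TNF-LTBR array 1 and control array 2 were the high ones, and the groups overlapped because control array 2 exceeded TNF-LTBR array 2. On the log2 scale Mt2 averaged 13.25 ± 0.91 in TNF-LTBR (SD, n = 2) and 12.30 ± 1.00 in control (SD, n = 3). The difference was 0.95, with a 95% interval of -0.76 to 2.67. It was 0.31 without TNF-LTBR replicate 1, 1.60 without TNF-LTBR replicate 2, 0.61 without control replicate 1 and 1.53 without control replicate 2.

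Mt1, whose product binds the same metals, had 13590 and 8771.8 in TNF-LTBR and 3352.5, 11804.1 and 7627.2 in control on its bright probe set 1422557_s_at. Again TNF-LTBR array 1 and control array 2 were highest and control array 1 lowest. Mt1 averaged 13.42 ± 0.45 in TNF-LTBR and 12.72 ± 0.92 in control, a difference of 0.70 (95% interval -0.70 to 2.11). It was 0.39 without TNF-LTBR replicate 1, 0.20 without control replicate 1 and 1.11 without control replicate 2. Its other probe set was dim, with 99.7 and 15.4 in TNF-LTBR and 41.4, 79.2 and 58.3 in control, and differed by -0.30. TNF-LTBR array 1 and control array 2 were the highest there too. Of the 6 pairs of 1 TNF-LTBR and 1 control array, TNF-LTBR was higher in 5 for Mt1 and in 5 for Mt2. Mt1 and Mt2 are close paralogues, and whether their probe sets share sequence was not examined.

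The promoters of these neighbouring genes are shown because both genes followed the same order over the arrays. The windows run from 250 bases before to 50 after an annotated start (RefSeq, GRCm38.p6), for Mt1 at chr8:94178839-94179138 and for Mt2 at chr8:94172368-94172667, both on the plus strand. For Mt2 this is the gene start, 94172618. The gene start of Mt1, 94178883, lies inside its window but is not the start that the window was built on. The Mt1 and Mt2 windows are thus placed differently against their genes. Capitals mark the metal response element core, searched as TGCACNC or TGCGCNC on both strands.
Mt1: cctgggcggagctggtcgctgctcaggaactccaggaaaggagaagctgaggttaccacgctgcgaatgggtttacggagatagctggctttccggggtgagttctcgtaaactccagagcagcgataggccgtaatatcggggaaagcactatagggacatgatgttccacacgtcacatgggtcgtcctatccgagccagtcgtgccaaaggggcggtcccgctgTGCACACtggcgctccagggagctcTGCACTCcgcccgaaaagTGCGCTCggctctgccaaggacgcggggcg
Mt2: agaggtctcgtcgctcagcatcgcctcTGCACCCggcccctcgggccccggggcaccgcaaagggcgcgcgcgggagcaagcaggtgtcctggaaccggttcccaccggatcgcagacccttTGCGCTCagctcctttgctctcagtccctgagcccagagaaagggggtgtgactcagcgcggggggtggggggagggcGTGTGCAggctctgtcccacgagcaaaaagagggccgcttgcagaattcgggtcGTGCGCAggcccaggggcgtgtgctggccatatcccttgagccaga
The Mt1 window held 3 matches and the Mt2 window 4, and of the other members' windows that of Gclm also held 3 and that of Srxn1 held 1. Of all 32851 windows of this length, 25.7% held at least 1 match and 1.97% held 3 or more. The Mt2 window also held 1 antioxidant response element core (TGACNNNGC, either strand), which 12.4% of windows held. A match describes the letters and is no measured binding site.

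Sod2 showed TNF-LTBR array 1 apart from the rest. Its brightest probe set, 1448610_a_at, had 4468.1 and 2160.6 in TNF-LTBR, against 2952.1, 3081.2 and 1969.9 in control. TNF-LTBR array 1 was the highest of the 5 and TNF-LTBR array 2 lay below control arrays 1 and 2. Sod2 averaged 11.61 ± 0.74 in TNF-LTBR and 11.36 ± 0.35 in control, a difference of 0.25 (95% interval -0.69 to 1.19). Leaving out TNF-LTBR replicate 1 turned it to -0.27, and leaving out TNF-LTBR replicate 2 gave 0.77. Probe set 1417193_at kept that order of arrays, with 3329.5 and 1621.3 in TNF-LTBR and 2070.3, 2262.6 and 1592.9 in control.

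On Sod2 probe set 1454976_at the groups did not overlap. It had 714.5 and 584.7 in TNF-LTBR and 577.3, 465.9 and 562.6 in control, so that TNF-LTBR array 2 and control array 1 were close. The difference there was 0.27 (95% interval -0.19 to 0.73). The fourth Sod2 probe set, with intensities of 37.6 to 142.4, differed by 0.47 with overlapping groups. Nfkbia, which encodes an NF-kB inhibitor and is itself an NF-kB target, had 14671.3 and 17861.9 in TNF-LTBR, against 10474.5, 5885.4 and 12049 in control. Its groups did not overlap, and its difference was 0.84 (limma, adjusted p 0.999). The other 4 probe sets of Nfkbia also lay higher without overlap, at 1.04, 1.20, 1.33 and 1.62.

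Hmox1, the inducible heme oxygenase that turns heme into biliverdin, iron and carbon monoxide, had the widest spread of the 10 genes and nearly no group difference. Its intensities were 5149.9 and 973.1 in TNF-LTBR, against 1621.8, 4840.9 and 1184.2 in control. Within TNF-LTBR, array 1 was 5.29-fold above array 2, the highest and the lowest of all 5 arrays. Hmox1 averaged 11.14 ± 1.69 in TNF-LTBR and 11.05 ± 1.06 in control. The difference was 0.092 (95% interval -2.20 to 2.38), with -1.10 when TNF-LTBR replicate 1 was left out and 1.28 when TNF-LTBR replicate 2 was.

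Macrophage markers shared their 2 high arrays, TNF-LTBR array 1 and control array 2, with Hmox1 and the metallothioneins. All 8 markers were measured, 6 of them among the brightest 60% of genes, and none was under an intensity of 16 on every array. Their sum was 9117 and 3065 in TNF-LTBR, against 4093, 8157 and 2720 in control, and 5 of the 8 had their 2 highest values on those arrays, as did 20.6% of all tested genes. On the other 3 arrays the order differed: the sum was higher on control array 1 than on TNF-LTBR array 2, as for Hmox1, while Mt1 and Mt2 were lowest on control array 1. Lyz2, the lysozyme of macrophages, had 3933.6 and 66.5 in TNF-LTBR, against 1088.5, 3409.2 and 186.3 in control. Sod2, Hmox1 and Gclm had their 2 lowest values on TNF-LTBR array 2 and control array 3, as did 5 macrophage and 9 endothelial markers. The same held for 23.1% of all tested genes. The part of either cell type in the values of these genes and of Mt1 and Mt2 was not tested.

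**Figure D3:**
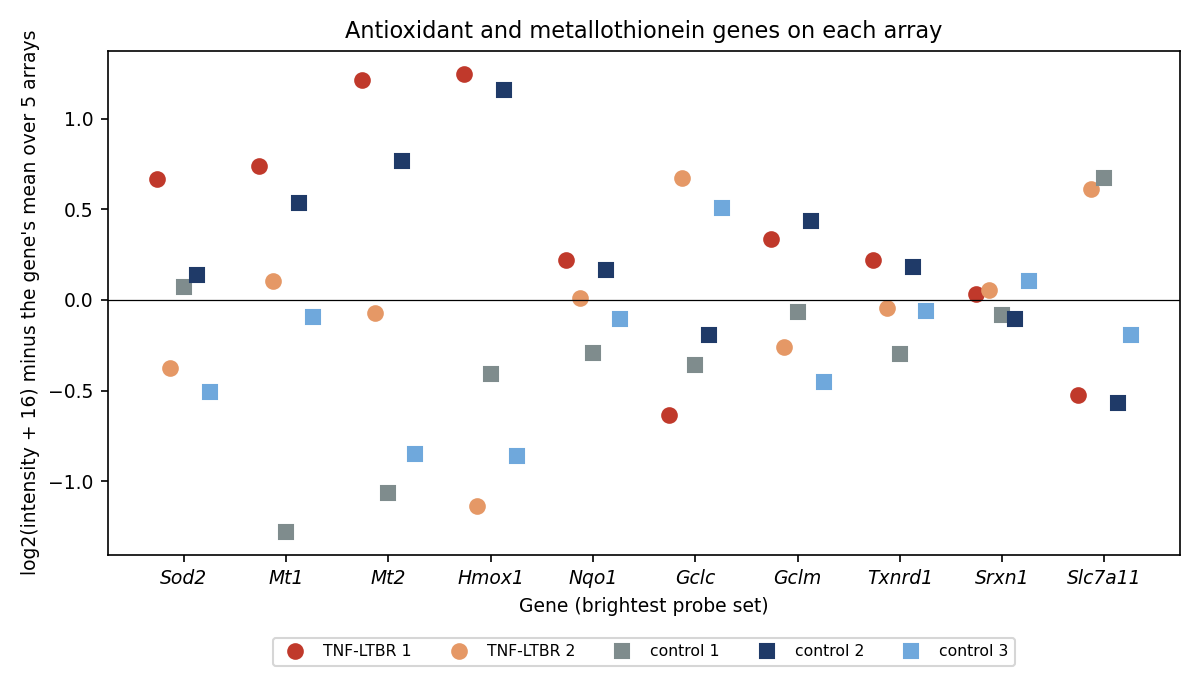
Log2(intensity + 16) of each gene's brightest probe set on each array, minus the gene's mean over the 5 arrays (circles, TNF-LTBR; squares, control). For Mt1, Mt2 and Hmox1, TNF-LTBR 1 and control 2 lie together at the top, while for Slc7a11 they lie together at the bottom, so that colours of both groups interleave.

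The Nrf2 targets of quinone reduction and thioredoxin recycling had an ordinary spread over the arrays. Nqo1 ranged over 0.51 and Txnrd1 over 0.52 on their brightest probe sets, ranges that 55.5% and 55.1% of tested genes reached. Nqo1, a quinone reductase often used as a marker of Nrf2 activity, had 550.2 and 473.4 in TNF-LTBR, against 380.7, 529.8 and 436 in control. Its difference was 0.19 (95% interval -0.31 to 0.70). It was 0.087 without TNF-LTBR replicate 1, 0.30 without TNF-LTBR replicate 2, 0.084 without control replicate 1 and 0.31 without control replicate 2. Txnrd1, the cytosolic thioredoxin reductase, had 4084.2 and 3401.6 in TNF-LTBR, against 2851.1, 3987.1 and 3360.6 in control on its brightest probe set. Its difference was 0.15 (95% interval -0.33 to 0.62). It was 0.014 without TNF-LTBR replicate 1, 0.28 without TNF-LTBR replicate 2, 0.026 without control replicate 1 and 0.27 without control replicate 2. Nqo1 and Txnrd1 shared one order of arrays, with TNF-LTBR array 1 highest, then control array 2, and control array 1 lowest, and Mt1 and Mt2 had this order as well. In their 5 log2 values, each taken from its own mean, Nqo1 and Txnrd1 differed by a root mean square of 0.032, the smallest of the 45 pairs of members.

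Txnrd1 probe set 1424486_a_at had 787 and 616.3 in TNF-LTBR and 545.4, 602.9 and 577 in control. Both TNF-LTBR values exceeded every control value, array 2 narrowly, and the difference was 0.27 (95% interval -0.16 to 0.70). The third Txnrd1 probe set, at 107 to 205, differed by 0.41 and its groups overlapped.

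Srxn1, sulfiredoxin, repairs overoxidised peroxiredoxins and is a known Nrf2 target. Its brightest probe set, 1426875_s_at, was nearly level, with 930.8 and 944.8 in TNF-LTBR, against 856.9, 843.7 and 978.2 in control. The highest value was on control array 3, and the difference was 0.073 (95% interval -0.29 to 0.43). It was 0.045 without control replicate 1, 0.034 without control replicate 2 and 0.14 without control replicate 3. Probe set 1451680_at had 786 and 927.2 in TNF-LTBR, against 501.4, 617.5 and 750.5 in control. Both TNF-LTBR arrays were above all controls there, with a difference of 0.46 (95% interval -0.069 to 0.99; limma, adjusted p 1.000). Probe set 1425351_at had 603.8 and 518.7 in TNF-LTBR, against 375.4, 396.2 and 492.2 in control, again without overlap, and differed by 0.41 (95% interval -0.082 to 0.89). The dimmest of its probe sets, at 89.8 to 230.4, differed by 0.15 and its groups overlapped. The 4 probe sets thus gave differences of 0.073 to 0.46, and the brightest gave the smallest. Without probe sets of shared-sequence suffixes, 1451680_at stands for the gene.

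The Srxn1 promoter window, chr2:152105274-152105573 on the plus strand (RefSeq, GRCm38.p6), is shown because Srxn1 alone had more than 1 probe set without overlap. Capitals mark the antioxidant response element core as TGACNNNGC or TGAGNNNGC on either strand.
Srxn1: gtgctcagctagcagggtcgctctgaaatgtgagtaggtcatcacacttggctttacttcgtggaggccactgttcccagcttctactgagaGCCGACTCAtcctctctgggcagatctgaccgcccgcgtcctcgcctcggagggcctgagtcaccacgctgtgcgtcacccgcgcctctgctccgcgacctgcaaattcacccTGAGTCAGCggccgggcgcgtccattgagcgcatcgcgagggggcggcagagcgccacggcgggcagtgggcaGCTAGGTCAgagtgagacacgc
It held 1 match to TGACNNNGC, and 12.4% of all windows held at least 1. With TGAGNNNGC also counted, a form added after the window had been seen, it held 3. Of all windows, 27.8% held at least 1 match to either form and 0.630% held 3 or more. As the form was added after the fact, the last share is no measure of how unusual the window is. Promoter windows were found for 8 of the 10 genes, 10 windows in all, and TGACNNNGC was in windows of Mt2, Gclm, Txnrd1 and Srxn1. Txnrd1 had several windows, and only that at chr10:82858956-82859255 held it. With TGAGNNNGC also counted, Slc7a11 made 5. For NF-kB only 1 narrow form of the motif was searched, which requires a run of T before its closing C letters. That form was in none of the windows of these 8 genes and in 1.63% of all windows. Other forms of the NF-kB motif were not searched. The Sod2 window does hold the letters ggggttcccc, an NF-kB-like sequence outside the form searched. How many of all windows hold such letters was not counted, and the other members' windows may hold NF-kB-like sequences too.

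The genes of glutathione synthesis did not follow one order of arrays. Gclc, the catalytic subunit of glutamate-cysteine ligase, had 937.8 and 2345.4 in TNF-LTBR, against 1138.1, 1280.2 and 2090.4 in control on its brightest probe set. TNF-LTBR arrays 1 and 2 were the lowest and the highest of the 5, with control array 3 beside the highest. Gclc averaged 10.55 ± 0.92 in TNF-LTBR and 10.52 ± 0.46 in control, a difference of 0.034 (95% interval -1.15 to 1.21). Its other probe set had 663.4 and 1424.4 in TNF-LTBR and 774.8, 817.3 and 1608.9 in control, and differed by -0.048. The 2 high arrays were the same on both probe sets, in opposite order.

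The summed fibroblast and pericyte markers were also highest on those 2 arrays. Their sum was 54264 and 69103 in TNF-LTBR, against 36887, 55191 and 69867 in control, and 5 of the 8 had their 2 highest values on TNF-LTBR array 2 and control array 3, as did 25.5% of all tested genes. Thy1 of the same list ran the other way, with 8871.2 and 127.9 in TNF-LTBR, against 2583.1, 12215.1 and 154.6 in control, and Pdgfra was highest on TNF-LTBR array 1, at 9001.8. None of the 8 was under an intensity of 16 on every array. The part of this in the Gclc values was not tested.

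Gclm, the regulatory subunit of the same ligase, had 761.1 and 500 in TNF-LTBR, against 573.5, 818.5 and 435.2 in control on its brightest probe set. Its high arrays were control array 2 and TNF-LTBR array 1, where Gclc was not high. The difference was 0.065 (95% interval -0.77 to 0.90) on this probe set. On the other one, with 478.4 and 315.6 in TNF-LTBR and 407.8, 640.7 and 442.6 in control, it was -0.31 (95% interval -1.02 to 0.39), so the 2 probe sets differed in sign.

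Slc7a11, the exchanger that imports cystine for glutathione synthesis, had 216 and 494.8 in TNF-LTBR, against 515.3, 209 and 276.5 in control. Control array 1 and TNF-LTBR array 2 were high, and control array 2 and TNF-LTBR array 1 were the lowest. The difference was 0.074 (95% interval -1.20 to 1.35), with 0.64 when TNF-LTBR replicate 1 was left out and -0.50 when TNF-LTBR replicate 2 was. Probe set 1420413_at had 165.4 and 306.7 in TNF-LTBR, against 324.9, 97.7 and 120.3 in control, with the same 2 high arrays and a difference of 0.47.

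Across the set, the arrays differed more than the groups. For 7 of the 10 genes, Sod2, Mt1, Mt2, Hmox1, Nqo1, Gclm and Txnrd1, the 2 highest values were those of TNF-LTBR array 1 and control array 2, an arrangement that 20.6% of tested genes showed. TNF-LTBR array 1 had control array 2 as its nearest control for 8 of the 10 genes, against 54.9% of tested genes, and TNF-LTBR array 2 had control array 3 for 8 of 10, against 49.7%. Over the 10 genes the root mean square distance was 0.277 between TNF-LTBR array 1 and control array 2 and 1.11 between the 2 TNF-LTBR arrays. These counts describe the order of 5 arrays and were not tested.

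The range over the 5 arrays was 1.21 at the median of the 10 genes, against 0.56 at the median of all tested genes. Hmox1 spanned 2.38, a range that 3.56% of tested genes reached, Mt2 2.28 (4.01%) and Mt1 2.01 (5.38%). Srxn1 was at the other end with 0.21, which 93.1% of tested genes reached. The absolute group difference, by contrast, was 0.12 at the median of the 10 genes and 0.13 at the median of all tested genes.

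**Figure D4:**
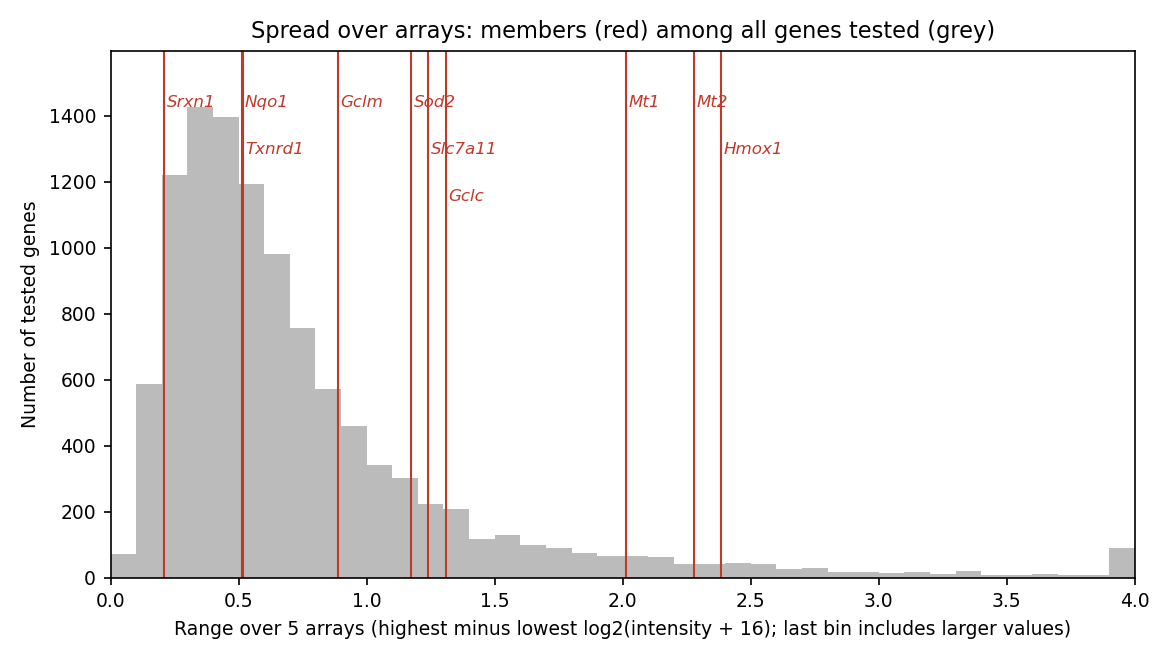
Histogram of the range over 5 arrays (highest minus lowest log2 value) for all tested genes, with the 10 genes marked in red. Hmox1, Mt1 and Mt2 lie above a range of 2, and Nqo1, Txnrd1 and Srxn1 lie below the median of all tested genes, 0.56.

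Transcripts of Nrf2 and of its inhibitor Keap1 were close to level between the groups. Nfe2l2 had 5360.7 and 5902 in TNF-LTBR, against 5227.5, 5345.9 and 6279 in control, a difference of 0.0068. Keap1 had 1060.2 and 1007.7 in TNF-LTBR, against 1248.6, 1017.5 and 979.9 in control, a difference of -0.057. Bach1 had 1726.2 and 1911.4 in TNF-LTBR, against 985.1, 1303.6 and 1701.2 in control. Its groups did not overlap, control array 3 came close, and its difference was 0.48, while its dimmer probe set was at -0.29. Nfe2l1, an Nrf2 relative that controls proteasome genes, had 4843.2 and 4900.7 in TNF-LTBR, against 4302.8, 3998.9 and 3512 in control, a difference of 0.31 without overlap. None of the 9 tested regulators of 10 listed passed the test (limma, adjusted p 0.999 for these 4). For 2 of the 9 the groups did not overlap with TNF-LTBR higher, and for 0 with TNF-LTBR lower. Over all tested genes these shares were 6.94% and 6.34%, and a list this short was not tested against them.

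Mtf1, the metal sensor that drives the metallothionein genes, had 456.6 and 421.1 in TNF-LTBR, against 466.2, 504.7 and 545.2 in control. Its groups did not overlap, TNF-LTBR array 1 lay just under control array 1, and the difference was -0.20. Its 4 other probe sets differed by -0.76 to -0.015 and overlapped. The zinc transporter gene Slc30a4 differed by 0.13. Of 9 tested metal handling genes, 0 passed, 0 lay higher without overlap and 1, Mtf1, lay lower. Over all tested genes 6.94% lay higher and 6.34% lower without overlap.

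In the remaining lists few genes separated the groups. Of 18 tested glutathione, NADPH and detoxification genes, 1 lay higher without overlap, Taldo1, a transaldolase of the pentose phosphate pathway, at 0.36. Gsta4, a glutathione transferase, was at -0.65 with overlapping groups. Of 12 thioredoxin and glutaredoxin genes, 1 lay higher, Txn1, the cytosolic thioredoxin, with 11707.8 and 11204.9 in TNF-LTBR, against 10133.1, 10069.9 and 9493.8 in control and a difference of 0.21. The other Txn1 probe set was at 0.55 and its groups overlapped. Txnip, an inhibitor of thioredoxin, was at -0.41 with overlap. Of 10 heme and iron genes, 1 lay higher, the iron transporter gene Slc11a2 at 0.48. Its other probe sets overlapped, at 0.29, 0.30 and -0.027. Hmox2, the constitutive heme oxygenase, was at -0.19. Of 11 superoxide dismutase and peroxidase genes, 4 sources of reactive oxygen and 10 amino acid response genes, 0 separated the groups on the brightest probe set. The mitochondrial peroxiredoxin gene Prdx3 was at 0.12, and Sod1, the cytosolic superoxide dismutase, was at -0.085. Its other 4 probe sets differed in direction, with 1 lower without overlap at -0.28, 1 higher without overlap at 0.24, and the other two overlapping at -0.15 and 0.26. The NADPH oxidase gene Nox4 was at -0.34 and Rac1, a small GTPase that some NADPH oxidases need, at -0.054. Chac1, whose product degrades glutathione, was at -0.62 and Atf4, the transcription factor of the amino acid response, at 0.25. Other probe sets of Atf4 were at -0.13 and 0.19. In all, 82 of 103 listed genes were tested. None passed the adjusted test and 0 had an unadjusted p under 0.05 (limma), against 0% and 1.76% of all tested genes. Of the 82, 5 lay higher without overlap (6.10%, against 6.94% of all tested genes) and 1 lower (1.22%, against 6.34%). Their median difference was 0.022, against -0.0035 over all tested genes.

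The tested genes whose array profiles were most like that of Sod2, by the root mean square difference of values centred on each gene's mean, were Akap2 at 0.063, 1700003F12Rik at 0.068 and Tasp1 at 0.069. For Mt2 they were Grem1 at 0.097, Steap1 at 0.20 and Gpr35 at 0.23. Mt1 ranked 69 of 10915 by likeness to Mt2, and Gclm ranked 459 of 10915 by likeness to Sod2. With 5 arrays such a ranking only describes these arrays.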

How the data were processed

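The authors deposited linear array intensities, 1 value for each probe set on each array. The submitters' processing notes list GCOS 1.4, and how probes were summarised and to what target arrays were scaled is not given in these sources. After trimming 2% at both ends each array had a mean of 500, and array medians were 109.9 to 120.7, so values were used as deposited. No detection calls were used here, and the number of arrays limits the precision.

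Of 45101 probe sets, 34958 had 1 symbol in the platform annotation, 932 had several and 9211 had none listed. All 22 member probe sets matched RefSeq by Entrez ID. Values were taken as log2(intensity + 16), which understates differences of dim genes. Each gene was represented by its brightest probe set, and the brightest 60% of genes (10916, mean log2 of at least 7.17) were tested with limma 3.58.1 in R 4.3.3 (lmFit, eBayes with trend, two-sided, 3 residual degrees of freedom), and Benjamini-Hochberg adjusted p under 0.05 over these genes counted as passing. Dimmer probe sets come from a fit of all single-symbol probe sets. The fit was run on simulated data with independent noise and large known shifts. Those settings lack the differences between arrays seen here, so the run checked the code only.

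Groups and replicate numbers came from the titles. The 10 genes and the gene lists were chosen with earlier results of these data known. Named outside the 10 were up to 2 genes per list with the smallest p, Nfe2l2, Keap1, Bach1, Mtf1 and Nfkbia, the 3 nearest profiles of Sod2 and Mt2, and single markers, which were chosen after their values were seen.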

Additional observations from a re-analysis of the deposited data

How the results depend on the processing

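In all 16 alternatives 0 genes passed limma's adjusted threshold, and the members' adjusted p ranged from 0.944 to 1.000 (limma). At an unadjusted p under 0.05 there were 192 genes, and 113 to 481 in the alternatives. The median difference of the members stayed above 0, at 0.092 to 0.22, and at 0.065 to 0.33 with 1 array left out, where a lone TNF-LTBR array is assumed to vary like the controls. The count of members without overlap was 0 in the main setting. With every probe set on its own it was 4, all higher (4 of 20 probe sets, against 7.68% of all). Without shared-sequence suffixes it was 1 of 8, higher, against 7.25% of tested genes. With 1 array left out it was 0 to 7. Without TNF-LTBR replicate 2 it was 6 higher and 1 lower, where 26.7% of tested genes lay higher and 26.9% lower. Without TNF-LTBR replicate 1 it was 1 higher and 1 lower, against 19.9% and 20.5%. Without control replicate 2 it was 4 higher, against 13.7%, and without control replicate 3 it was 1 higher, against 14.5%. Fewer arrays make such counts larger by construction. Directions of 5 members turned: with 1 array left out, the difference was -0.27 to 0.77 for Sod2, -1.10 to 1.28 for Hmox1, -0.62 to 0.69 for Gclc, -0.23 to 0.36 for Gclm and -0.50 to 0.64 for Slc7a11. With array quality weights it was -0.033 for Hmox1, -0.016 for Gclm and -0.032 for Slc7a11, and the cause was not tested. Without shared-sequence suffixes it was -0.048 for Gclc, since its other probe set, with that difference, then stands for the gene. With the replicate number as a block, which takes control replicate 3 out of the comparison, it was -0.32 for Hmox1, -0.15 for Gclm and -0.0063 for Slc7a11, with 0 genes past the adjusted threshold. Nothing in the labels says that a number marks a shared culture, and the correlation across genes of same-numbered arrays' deviations from their group means was 0.13 for number 1 and -0.80 for number 2. The deviations of the 2 TNF-LTBR arrays are mirror images by construction. The -0.80 therefore restates the 0.80 of TNF-LTBR array 1 with control array 2 and is no separate check of pairing. With the block, and likewise with array weights, 7 of 10 members differed by more than 0. Mt1, Mt2, Nqo1, Txnrd1 and Srxn1 stayed above 0 in every alternative that held them, and with 1 array left out were at 0.20 to 1.11, 0.31 to 1.60, 0.084 to 0.31, 0.014 to 0.28 and 0.034 to 0.14 in that order. Without shared-sequence suffixes Txnrd1 has no probe set, and Mt1 only one under the brightness filter.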
